A study of Mus musculus with 4 samples.

Results

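Unipolar brush cells are glutamatergic interneurons of the granular layer of the cerebellum, and like granule neurons they arise from the rhombic lip. They are known for the transcription factors Eomes, Lmx1a and Otx2 and for metabotropic glutamate signalling, and the calcium buffer Calb2 (calretinin) marks those that glutamate inhibits. Granule neurons pass through a dividing Atoh1-positive progenitor and a newborn stage that carries Neurod1, Cntn2 and Nhlh1, and they switch on genes such as Gabra6 when they mature.

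The cells described here were picked by their UMIs, each of which stands for 1 captured RNA molecule, and the label under which they were picked is the unipolar brush cell lineage. Barcodes with at least 500 genes and at most 20% mitochondrial UMIs were kept, and a kept cell was a member if it had at least 2 UMIs of Eomes, or at least 1 each of Eomes and Lmx1a, together with 0 UMIs of the choroid plexus genes Folr1 and Kcnj13, the leukocyte gene Ptprc and the GABA synthesis genes Gad1 and Gad2. This gave 1959 of 42576 kept cells, or 4.60%: 382 in P10 cKO, 498 in P10 WT, 323 in P14 cKO and 756 in P14 WT. Of 2220 cells with enough Eomes or Lmx1a, 261 were lost to the 5 barred genes. Eomes alone admitted 1951 members, and 8 entered only through Eomes together with Lmx1a. The levels of these 7 genes therefore describe the choice and support nothing.

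The tissue was whole cerebellum of mice, freed of meninges and dissociated with trypsin, and single cells were sequenced in droplets, with 1 library per group. The groups are Eftud2 cKO and WT at postnatal day 10 (P10) and Eftud2 cKO and WT at postnatal day 14 (P14), and Eftud2 encodes the GTPase of the U5 snRNP of the spliceosome. The labels name neither the Cre line, the deleted exons, the sex nor the number of animals pooled, while the series title speaks of Eftud2-deficient Purkinje cells, so which cells lost the gene is not given for the members. With 1 library per group no genotype difference at one age has a replicate check, no p-value is given for it, and all intervals below cover counting error only.

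The 4 libraries held 6719 to 16691 barcodes and 91091692 to 158017834 UMIs, and pairs of libraries shared 7 to 76 barcode sequences, at most 0.607% of a library's cells. The matrices were written by Cell Ranger 7.0.1 for P10 cKO, 5.0.0 for P10 WT and 7.1.0 for both P14 libraries, so at P10 program version and genotype cannot be told apart. Xist, the RNA of the inactive X chromosome, stood in the members at 0.118 CPM (UMIs per 1000000 UMIs of the class) in P10 cKO, 1187 in P10 WT, 808 in P14 cKO and 924 in P14 WT, and the Y-linked gene Uty at 104 in P10 cKO, 0 in P10 WT, 0 in P14 cKO and 0 in P14 WT. Sex-linked genes thus differed between the P10 libraries and cannot be told apart from genotype there.

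The data went against the label for nearly all members, which carried the genes of newborn granule neurons beside a few UMIs of Eomes. At least 2 UMIs of Neurod1 were found in 1949 of the 1959 cells, and Cntn2, the axonal adhesion molecule of newborn granule neurons, had a UMI in 96.6 to 99.5% of members per library. A UMI of both was carried by 380 members in P10 cKO, 483 in P10 WT, 312 in P14 cKO and 731 in P14 WT. Among all kept cells both were found in 4438 of 6593, 5388 of 14280, 3538 of 6308 and 9580 of 15395 in those libraries. Members were also deeper than the other kept cells in every library. Lmx1a was found in 33 members and Samd3 in 18. Of the 4 unipolar brush cell markers Eomes, Lmx1a, Otx2 and Samd3, 965 members carried 1, 964 carried 2, 16 carried 3 and 14 carried all 4. They are therefore called Eomes-positive cells here and get no cell type name.

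Eomes was also found in newborn granule neurons outside the members. Newborn granule neurons, taken as cells with a UMI each of Neurod1 and Cntn2, held most of the members, which made up 7.63 to 8.96% of the class in each library. With the members in it the class had Eomes at 31.4 CPM in P10 cKO, 36.0 in P10 WT, 28.7 in P14 cKO and 41.2 in P14 WT, and these UMIs were split between members and other cells, with 1066, 1443, 861 and 1791 in members against 1005, 1103, 696 and 1903 in the others in P10 cKO, P10 WT, P14 cKO and P14 WT. With the members left out, which takes away the cells with the most Eomes, it had 17.5 CPM in P10 cKO, 18.0 in P10 WT, 14.2 in P14 cKO and 23.3 in P14 WT. Astroglia, oligodendrocytes, microglia and endothelial cells had 0.281 to 6.86 CPM with the members left out, and cells with at least 2 UMIs of the progenitor factor Atoh1 had 2.72 to 9.39 CPM. GABAergic cells, taken as cells with at least 2 UMIs of Gad1 and Gad2 together, held no members and had 4.67 to 23.7 CPM, in P10 WT more than the newborn granule neurons without members. An Eomes UMI was then found in 18.0 to 20.7% of newborn granule neurons and 1.85 to 4.53% of endothelial cells, and after each cell was thinned to 2000 UMIs in 2.95 to 5.33% and 0 to 1.07%. The median depth was 7802 to 12919 UMIs a cell in all newborn granule neurons and 11129 to 15703 in all endothelial cells. Otx2 was at 48.9 CPM in P10 cKO, 75.2 in P10 WT, 52.0 in P14 cKO and 83.9 in P14 WT in all newborn granule neurons, and in all cells with at least 2 Atoh1 UMIs it was higher, at 71.1 in P10 cKO, 94.0 in P10 WT, 91.9 in P14 cKO and 107 in P14 WT.

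**Figure D1:**
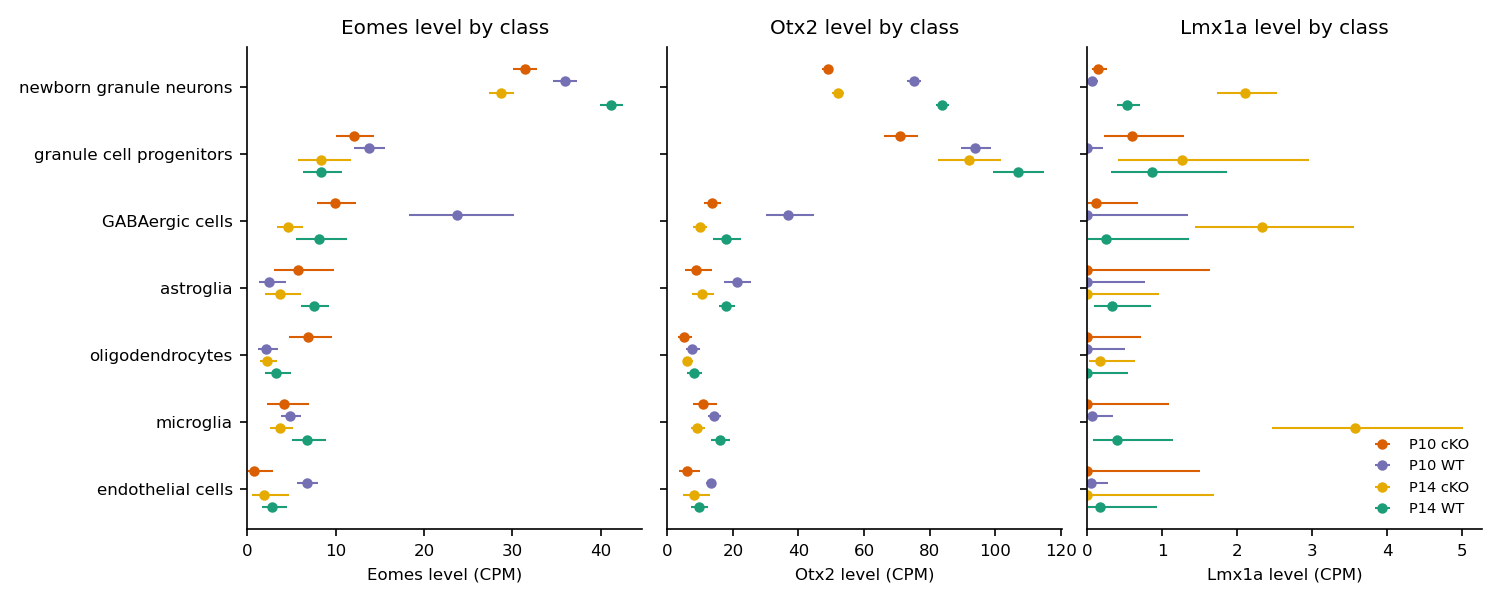
Levels of Eomes, Otx2 and Lmx1a in CPM (linear axes) in 7 cell classes of each library, members included, with 95% Poisson intervals for counting error. Eomes lies at 28.7 to 41.2 CPM in newborn granule neurons, which here include members that were chosen by Eomes. Otx2 is present in newborn granule neurons and in granule cell progenitors, while Lmx1a lies at 0.0565 to 2.10 CPM in newborn granule neurons.

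The members lay close to the threshold of the rule. Exactly 2 Eomes UMIs were carried by 56.5% of members in P10 cKO, 57.4% in P10 WT, 60.4% in P14 cKO and 68.5% in P14 WT. These cells numbered 216, 286, 195 and 518 in P10 cKO, P10 WT, P14 cKO and P14 WT, against 692, 907, 493 and 1776 cells just outside the rule, with 1 Eomes UMI and 0 of Lmx1a. Just inside, Otx2 was at 57.7, 90.5, 73.3 and 102 CPM in those libraries, against 52.3, 82.4, 60.8 and 91.5 CPM just outside. Neurod1, a factor of granule neuron differentiation, was at 1914, 2855, 2133.5 and 1972 CPM just inside and 1968, 2382, 2024 and 1897 CPM just outside. Otx2 was a little higher just inside in every library and Neurod1 in 3 of 4.

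The members were deeper than granule neurons in every library. Their median UMI count was 12862.5 in P10 cKO, 13876.5 in P10 WT, 14160 in P14 cKO and 8795.5 in P14 WT, against 9406 in P10 cKO, 6090 in P10 WT, 11532.5 in P14 cKO and 6885 in P14 WT for the granule neurons used as comparator below. With each cell thinned to 2000 UMIs before the rule was applied, the share of members was 0.442% in P10 cKO, 0.349 in P10 WT, 0.287 in P14 cKO and 0.532 in P14 WT.

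A small set within the members did carry several unipolar brush cell genes together. These were 17 cells, 1 in P10 cKO, 1 in P10 WT, 8 in P14 cKO and 7 in P14 WT, with UMIs of at least 2 of Sln, Rgs6 and Samd3, and all 17 also carried Lmx1a. Sln encodes the calcium pump regulator sarcolipin, Rgs6 a regulator of G protein signalling, and Samd3 a SAM domain protein. The criterion was chosen after the values had been seen, so these counts are a description. On GRCm38, Eomes lies at chr9:118478212-118486132, plus strand, Lmx1a at chr1:167689237-167848741, plus strand, Samd3 at chr10:26229707-26272172, plus strand, Sln at chr9:53850164-53854560, plus strand and Rgs6 at chr12:82588292-83162056, plus strand.

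The 33 members with Lmx1a fell apart when read cell by cell. At P14 cKO the 8 cells of the small set had a median of 9.50 Lmx1a UMIs, 12 Eomes UMIs and 0.5 Cntn2 UMIs, against 1, 3 and 8.50 in the other 6 members with Lmx1a. At P14 WT the 7 cells had medians of 5, 4 and 1, against 1, 1 and 12 in the other 7. The remaining Lmx1a-positive cells at P14 thus had mostly 1 Lmx1a UMI and more Cntn2. Single cells differed as well: 1 cell of the set in P14 cKO held 272 UMIs of Calb2, while the other cells of the set held between 0 and 40, and the only cell of the set in P10 WT held 71 UMIs of the proliferation gene Mki67.

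**Figure D2:**
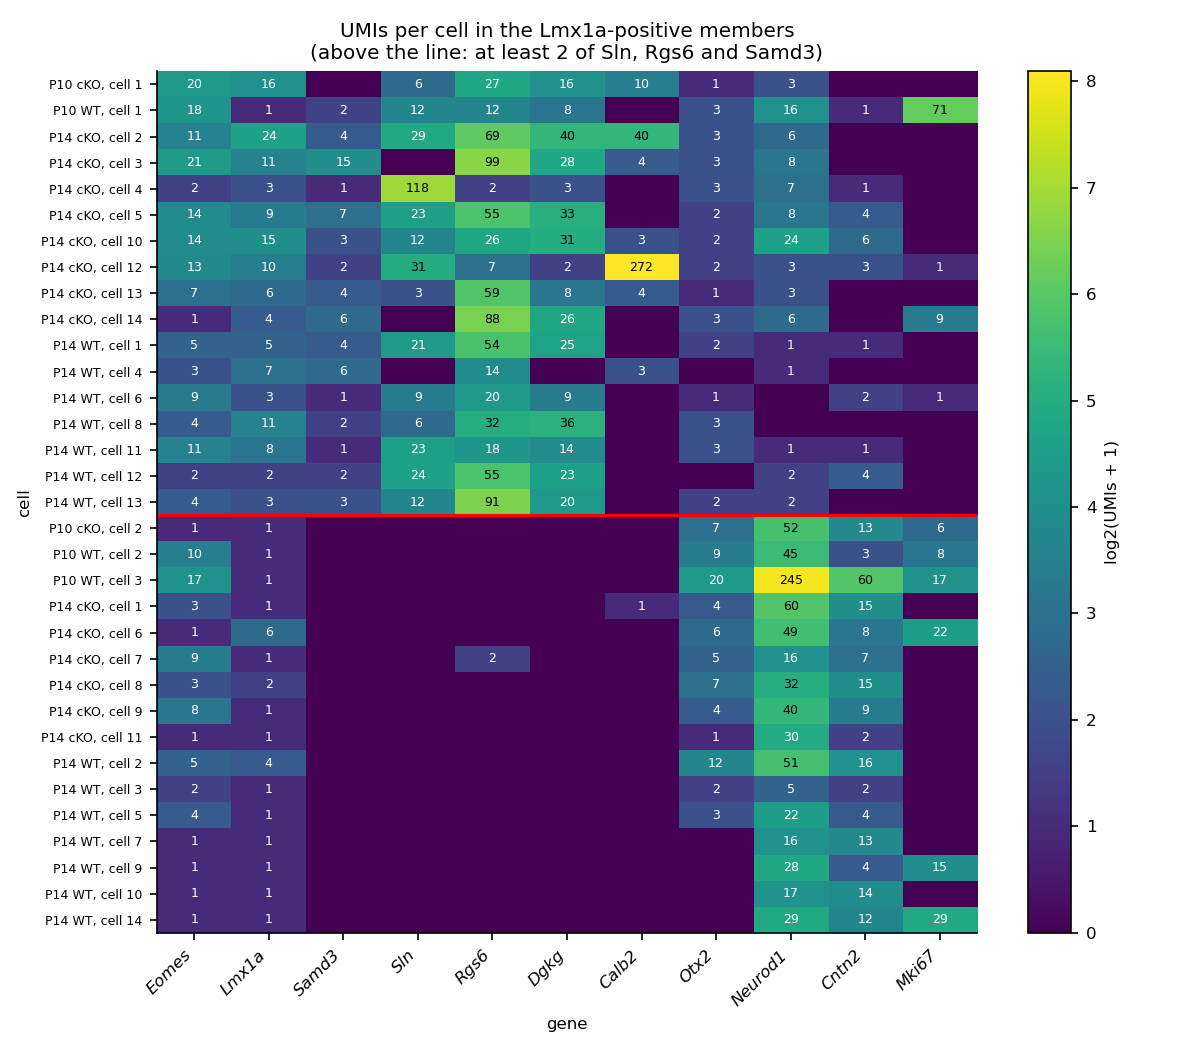
UMIs per cell of 11 genes in the 33 Eomes-positive cells with Lmx1a, one row per cell, by library, with the 17 cells that carry at least 2 of Sln, Rgs6 and Samd3 above the red line. Those 17 rows hold most of the Lmx1a and Dgkg UMIs and few of Cntn2 and Neurod1, and the rows below the line show the reverse.

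Among all kept cells the 17 made up 0.127% in P14 cKO (exact binomial 95% interval 0.0548 to 0.250%), against 0.0455% in P14 WT (0.0183 to 0.0937%), and these intervals overlap. At P10 they made up 0.0152% in cKO and 0.00700% in WT, 1 cell each. The rule also left such cells out: 7 more kept cells, 1 in P10 WT, 5 in P14 cKO and 1 in P14 WT, had at least 2 of Sln, Rgs6 and Samd3. With them such cells made up 0.206% of kept cells in P14 cKO (0.110 to 0.352%), against 0.0520% in P14 WT (0.0224 to 0.102%). These intervals do not overlap, but they cover counting error only, with 1 library per group. The criterion was chosen after the values had been seen. P14 cKO was also the deeper library, with a median of 12347 UMIs a kept cell, against 7838 in P14 WT. The difference between genotypes was not tested. One of the 7, in P14 cKO, held 16 UMIs of Eomes, 33 of Lmx1a, 11 of Samd3 and 112 of Rgs6, and was barred by 18 UMIs of Ptprc.

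Members with Lmx1a and members without it were set side by side within each P14 library, where each had 14 cells with Lmx1a. Lmx1a-positive members carried Dgkg, Rgs6, Sln and Grp, which were close to 0 in the rest, and less of the newborn granule neuron genes. Of 10905 genes with enough UMIs, 799 (7.33%) were at least 2-fold higher in both P14 libraries and 429 (3.93%) at least 2-fold lower in both. Since Lmx1a helped to choose the cells and each sum rests on 14 cells, these are values without a test. The cells with Lmx1a were also deeper, with a median of 24455.5 UMIs against 14101 in P14 cKO and 14041.5 against 8730 in P14 WT.

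The gene Dgkg, whose product is a kinase of the lipid messenger diacylglycerol, stood at 518 CPM in the cells with Lmx1a, against 1.17 in the cells without, at P14 cKO, and 530.5 against 0.996 at P14 WT. Rgs6 stood at 1234 CPM in the cells with Lmx1a, against 4.1 in the cells without, at P14 cKO, and 1186 against 4.86 at P14 WT. Both were near 0 in the cells without Lmx1a in both genotypes. Of the metabotropic receptors and their effectors 8 of 26 were higher in both libraries, among them the receptors Grm3, Grm7 and Grm8, the phospholipase Plcb4 and the potassium channel Kcnj9, and 2 were lower, the scaffold Homer3 and the kinase Prkcd.

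Sarcolipin (Sln) stood at 655 CPM in the cells with Lmx1a, against 0.390 in the cells without, at P14 cKO, and 397 against 0 at P14 WT, and with 0 UMIs there the level at P14 WT was at least 10.05 higher on the log2 scale against a floor of 3 UMIs. All 5 calcium buffer genes that passed 2-fold, of 10, were higher, namely Hpca, Calb2, Sln, Vsnl1 and Pcp4. The neuropeptide genes Grp and Adcyap1 stood at 182 and 167 CPM in P14 cKO cells with Lmx1a and at 0 and 0.781 in the cells without. In P14 WT they stood at 125 and 125 CPM with Lmx1a, against 0.249 and 1.37 without. The vesicular glutamate transporter Slc17a7 stood at 403 CPM in the cells with Lmx1a, against 29.7 in the cells without, at P14 cKO, and 171 against 30.4 at P14 WT, whereas Slc17a6, the transporter of younger glutamatergic neurons, was lower in the cells with Lmx1a, at 121 CPM against 193 in P14 cKO and 125 against 215 in P14 WT.

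The genes highest in the cells with Lmx1a also included Nwd2, Snhg11, Fam135b, Adcy2, Sulf1, Bmp6, Atp1b1 and Dgkb. Adcy2 encodes an adenylyl cyclase, Bmp6 a secreted ligand and Atp1b1 a subunit of the sodium pump. Their P14 WT levels ran from 66.8 CPM for Bmp6 to 886 CPM for Dgkb, against 0.374 to 11.96 CPM in the cells without Lmx1a. Of 46 adhesion and guidance genes, 17 were at least 2-fold higher in both libraries, such as Ntng1, Epha4, Epha5, Nrp2 and Tenm2, 2 were lower, Plxna2 and Cdh10, and the others passed in neither direction. Voltage-gated channel genes were higher in 10 of 32, the sodium channels Scn1a, Scn2a and Scn3a included, and lower in 2.

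On the lower side stood 4 of 5 newborn granule neuron genes and 7 of 18 immature neuron genes. Cntn2 stood at 212 CPM in the cells with Lmx1a, against 692 in the cells without, at P14 cKO, and 305 against 626 at P14 WT, and the helix-loop-helix factor Nhlh1 at 30.3 CPM in the cells with Lmx1a, against 173 in the cells without, at P14 cKO, and 50.1 against 182 at P14 WT. Neurod1 stood at 885 CPM in the cells with Lmx1a, against 2146 in the cells without, at P14 cKO, and 731 against 1975 at P14 WT. These sums mix unlike cells. In P14 cKO the 8 cells of the small set held 3 to 24 Neurod1 UMIs each, and the others with Lmx1a 16 to 60. In P14 WT the 7 cells of the set held 0 to 2 each, and the others with Lmx1a 5 to 51. Prex2, Pnoc, Clstn2 and Chrm2 had 0 UMIs in the cells with Lmx1a in both libraries, against 12.3 to 28.5 CPM in the rest, a level at which a sum of 239404 or 329876 UMIs would hold few. The 22 cell cycle genes and the 9 U5 snRNP genes had 0 members past 2-fold in both libraries, Eftud2 at 39.4 CPM in the cells with Lmx1a, against 43.5 in the cells without, at P14 cKO, and 41.8 against 39.5 at P14 WT.

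Next, all Eomes-positive cells were compared with granule neurons of the same libraries, to see how they differ from granule neurons without Eomes. They had about 2 times as much Otx2 and less of the NMDA receptor subunit gene Grin1 and of the calmodulin regulator gene Pcp4. The comparator held 9921 cells with at least 2 UMIs of Neurod1 and 0 of Eomes, Lmx1a, Atoh1, Mki67, Top2a and the barred genes. UMIs were summed per class and library and tested with edgeR's quasi-likelihood F test with the library as a block, and adjusted p-values (Benjamini-Hochberg over all genes tested) of at most 0.05 were called. Of 15063 genes, 1157 (7.68%) were higher and 1257 (8.34%) lower in Eomes-positive cells. The median log2 ratio of all genes was -0.019. Without P10 cKO 431 genes were higher and 346 lower, without P10 WT 746 and 634, without P14 cKO 494 and 265, and without P14 WT 1008 and 1473.

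Because the rule for granule neurons bars Mki67, Top2a and Atoh1, the direction of the cell cycle genes there is set by that choice and is no result. The fit was repeated with the members that had no UMI of Lmx1a, Atoh1, Mki67 or Top2a, which left 248, 195, 240 and 584 members in P10 cKO, P10 WT, P14 cKO and P14 WT. This repeat was chosen after the values had been seen. It called 459 of 14574 genes (3.15%) higher and 1088 (7.47%) lower, and it is called the restricted fit below.

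Otx2, the homeodomain factor, was at 59.6, 100.3, 80.9 and 105 CPM in Eomes-positive cells of P10 cKO, P10 WT, P14 cKO and P14 WT, against 32.7, 45.6, 41.8 and 68.1 CPM in granule neurons of the same libraries (log2 ratio 0.91 ± 0.088, SE, edgeR adjusted p = 0.00156). It was higher in all 4 libraries, and in the restricted fit the log2 ratio was 0.66 (edgeR adjusted p = 0.00384). The other tested marker, Samd3, was higher by 4.94 (edgeR adjusted p = 0.0236) on levels of 0.118 to 7.70 CPM, and Lmx1a-positive cells held 100% of its UMIs in P14 cKO and 95% in P14 WT.

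Of 35 rhombic lip and glutamatergic lineage transcription factors, 8 were higher and 2 lower in the full fit, and of 33 tested in the restricted fit, 11 were higher and 4 lower. Ebf3, a factor of differentiating neurons, was at 666, 269, 479.6 and 525 CPM in Eomes-positive cells of P10 cKO, P10 WT, P14 cKO and P14 WT, against 534, 169, 252 and 414 CPM in granule neurons of the same libraries (log2 ratio 0.58 ± 0.106, edgeR adjusted p = 0.0169, 0.71 in the restricted fit). Barhl2 and Barhl1, homeodomain factors of the granule lineage, had log2 ratios of 0.37 and 0.27 and were called in both fits. The shared lineage factors Pax6 and Zic1 were not called, with log2 ratios of 0.11 and 0.021. The lower genes were Id4 and Sox2, which also mark astroglia, at 3.53 to 13.2 CPM of Sox2 in Eomes-positive cells and 12.7 to 30.5 CPM in granule neurons.

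Genes of young neurons were higher once the cycling cells were set aside. Of 20 immature neuron genes, 4 were higher and 2 lower in the full fit (median log2 ratio 0.089), and 10 were higher and 0 lower in the restricted fit (median 0.32). Elavl2, a neuronal RNA-binding protein gene, was at 672, 627, 604 and 684 CPM in Eomes-positive cells of P10 cKO, P10 WT, P14 cKO and P14 WT, against 545, 394, 308 and 561 CPM in granule neurons of the same libraries (log2 ratio 0.58 ± 0.119, edgeR adjusted p = 0.0241, 0.64 in the restricted fit). Sox11, a factor of early neuronal differentiation, moved likewise, by 0.40 in the full fit and 0.53 in the restricted fit. Cntn2 had a log2 ratio of 0.19 (edgeR adjusted p = 0.15) in the full fit and 0.51 (edgeR adjusted p = 0.0147) in the restricted fit. Nhlh1 was likewise called in the restricted fit only, with log2 ratios of 0.25 and 0.58. Of the 5 newborn granule neuron genes tested, 0 were called in the full fit and 3 were higher in the restricted fit, Cntn2, Nhlh1 and Nhlh2.

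Of 8 mature granule neuron genes 2 were lower and 0 higher. The protocadherin Fat2 was at 9.42, 2.30, 33.6 and 13.2 CPM in Eomes-positive cells of P10 cKO, P10 WT, P14 cKO and P14 WT, against 31.5, 6.84, 84.2 and 24.2 CPM in granule neurons of the same libraries (log2 ratio -1.32 ± 0.144, edgeR adjusted p = 0.00281, -0.97 in the restricted fit). Cbln1, the secreted synapse organiser, had a log2 ratio of -0.40 and was called in the full fit only.

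Transmission genes called in the full fit, whose comparator bars cycling cells but whose members include them, lay mostly on the lower side. Fewer of the receptor genes were lower in the restricted fit. Of 25 ionotropic glutamate receptor genes 5 were lower and 0 higher, namely Gria1, Grin1, Grin2a, Grin2b and Grid1, and in the restricted fit 3 were lower and 3 higher. Grin1, the obligatory NMDA receptor subunit, was at 10.1, 1.68, 52.3 and 20.6 CPM in Eomes-positive cells of P10 cKO, P10 WT, P14 cKO and P14 WT, against 34.4, 6.17, 136 and 43.4 CPM in granule neurons of the same libraries (log2 ratio -1.41 ± 0.126, edgeR adjusted p = 0.00104, -1.13 in the restricted fit). It was lower in all 4 libraries. Of 17 inhibitory receptor genes 6 were lower in the full fit and 1 in the restricted fit. Of 39 voltage-gated channel genes 10 were lower and 1 higher. The potassium channel Kcna1 had a log2 ratio of -1.07 (-0.65 in the restricted fit), and the leak channel Kcnk9, the higher one, 0.29 (0.48). The vesicular transporter Slc17a6 was higher by 0.44 (edgeR adjusted p = 0.0258), and 4 other vesicle genes of 28 were lower.

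Metabotropic receptors and their effectors went both ways, 5 higher and 5 lower of 30. The higher ones were Grm2, Grm8, Dgkg, Dgkz and Kcnj6. Dgkg was at 3.06, 0.942, 32.5 and 16.3 CPM in Eomes-positive cells of P10 cKO, P10 WT, P14 cKO and P14 WT, against 1.43, 0.482, 3.36 and 0.763 CPM in granule neurons of the same libraries (log2 ratio 2.89 ± 0.591, edgeR adjusted p = 0.0236). The fit without the members that carried Lmx1a called 1277 genes higher (8.52%) and 1676 lower (11.2%). In it the log2 ratio of Dgkg was -0.60. The kinase Dgkz and the potassium channel Kcnj6 were called in both fits, at 0.40 and 0.39 in the restricted fit.

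Among calcium buffers Pcp4, a calmodulin regulator, was at 10.4, 11.3, 90.2 and 16.0 CPM in Eomes-positive cells of P10 cKO, P10 WT, P14 cKO and P14 WT, against 39.2, 34.1, 225 and 51.2 CPM in granule neurons of the same libraries (log2 ratio -1.58 ± 0.097, edgeR adjusted p = 0.000182, -1.40 in the restricted fit). Of 51 adhesion and guidance genes 5 were higher and 9 lower. The netrin receptor Dcc and the ephrin receptor Ephb2 were higher by 0.68 and 0.48, while the semaphorin receptor Plxna2 and the synaptic adhesion gene Lrrtm3 were lower, at -1.02 and -1.49. All 4 were called with the same sign in the restricted fit.

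Some of these calls were lost when 1 library was left out or the comparator was changed. Without P14 cKO the adjusted p (edgeR) was 0.133 for Dgkg, 0.159 for Grm8, 0.099 for Grin2a, 0.0915 for Slc17a6, 0.066 for Elavl2, 0.142 for Sox11, 0.0946 for Barhl2 and 0.0893 for Dcc, while Otx2, Ebf3, Fat2, Grin1, Kcna1, Pcp4, Plxna2, Lrrtm3, Ephb2 and Sln kept their calls with any 1 library left out. For Sln, 99.1 to 100% of UMIs per library lay in members with Lmx1a, a gene barred from the comparator, so its calls rest on those few cells. Samd3 kept its call without either P10 library and had too few UMIs to be tested without either P14 library. The log2 ratios of the lost calls kept their direction, and without P14 cKO they were 2.54 for Dgkg, 0.91 for Grm8, -0.89 for Grin2a, 0.45 for Slc17a6, 0.44 for Elavl2, 0.31 for Sox11, 0.35 for Barhl2 and 0.49 for Dcc. Calls were also lost without P10 cKO, with adjusted p-values (edgeR) of 0.0554 for Grin2a, 0.0839 for Slc17a6, 0.0544 for Elavl2, 0.121 for Sox11 and 0.114 for Barhl2. Without P10 WT they were 0.0635 for Elavl2, 0.0868 for Sox11 and 0.0583 for Barhl2, and without P14 WT 0.0813 for Grm8 and 0.0683 for Dcc. Against all cells with at least 2 UMIs of Neurod1 the log2 ratio was -0.44 for Fat2, -0.16 for Kcna1 and -0.21 for Plxna2, with adjusted p-values (edgeR) of 0.0599, 0.499 and 0.103, so these 3 were not called there.

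**Figure D3:**
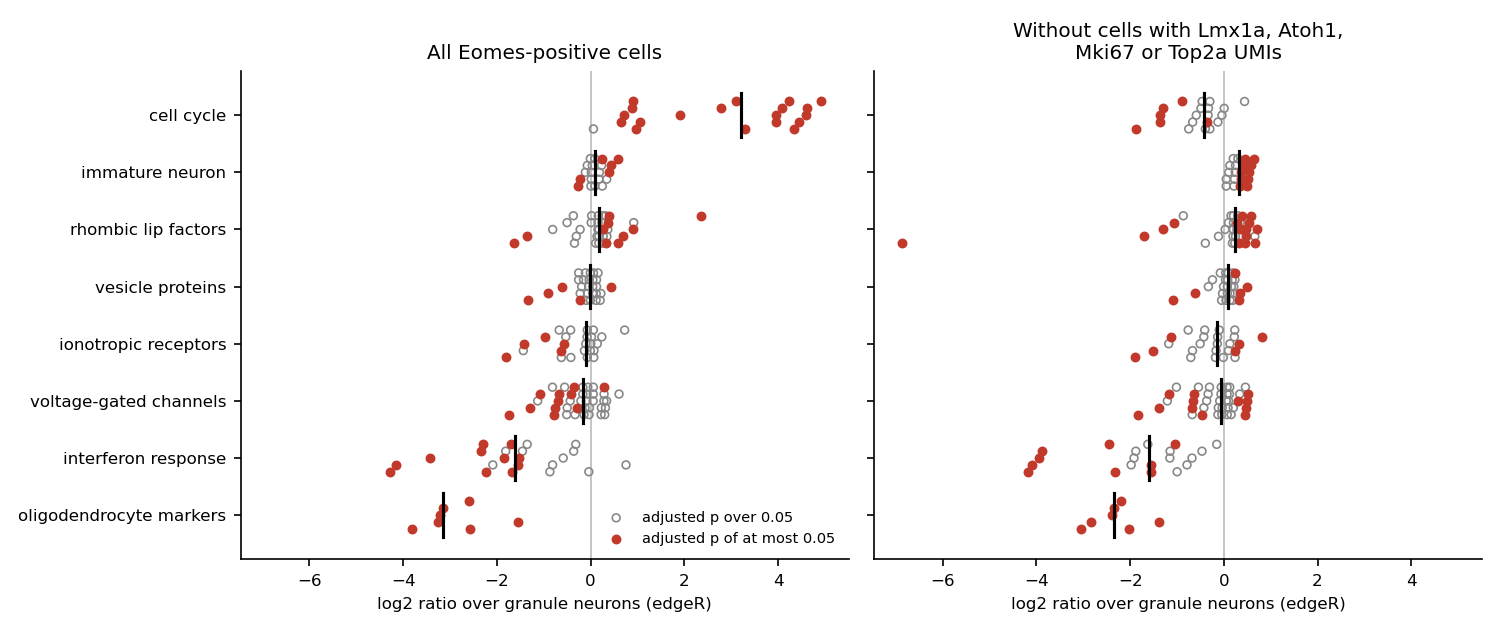
Log2 ratio of each gene of 8 lists, Eomes-positive cells over granule neurons, for all members on the left and for members without UMIs of Lmx1a, Atoh1, Mki67 or Top2a on the right, with called genes in red and the median of each list as a black bar. The cell cycle median lies at 3.20 on the left and -0.43 on the right, and the immature neuron median at 0.089 and 0.32.

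Cell cycle genes turned with the cells chosen for the comparison. Against granule neurons, from which cycling cells were barred, 19 of 20 were higher (median log2 ratio 3.20). Against all cells with at least 2 UMIs of Neurod1 0 were higher and 19 lower (median -0.72), and in the restricted fit 0 were higher and 6 lower (median -0.43). Cenpf, a kinetochore gene, had a log2 ratio of 4.63 in the full fit and -0.49 in the restricted fit. Of the 9 U5 snRNP genes Prpf8 was higher by 0.27 (edgeR adjusted p = 0.0388), and in the restricted fit 0 were called. Eftud2 was at 52.0, 59.2, 43.3 and 39.5 CPM in Eomes-positive cells of P10 cKO, P10 WT, P14 cKO and P14 WT, against 45.2, 43.4, 39.8 and 37.4 CPM in granule neurons of the same libraries and was not called (log2 ratio 0.23 ± 0.076, edgeR adjusted p = 0.0827). Interferon response genes were lower in 11 of 22 cases, the antiviral modifier Isg15 at 0 to 0.484 CPM in Eomes-positive cells and 2.22 to 7.49 CPM in granule neurons. Of 17 p53 targets 1 was higher and 3 lower, and of 22 Wnt and BMP genes 1 was higher and 4 lower.

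Markers of other cell types moved with this comparison. All 7 oligodendrocyte markers were lower in Eomes-positive cells, with summed levels of 122 CPM in P10 cKO, 258 in P10 WT, 1124 in P14 cKO and 431 in P14 WT, against 2332 in P10 cKO, 2528 in P10 WT, 4786 in P14 cKO and 869 in P14 WT in granule neurons. Of 9 astroglial markers 8 were lower, with sums of 135 to 367 CPM in Eomes-positive cells, against 498 to 820.4 CPM in granule neurons. Of the markers of glia, vessels, fibroblasts and choroid plexus, Ptprc, Folr1 and Kcnj13 were at 0 in Eomes-positive cells of all 4 libraries. The rule for members bars these genes, so that level is set by the choice and is no result. The part of the markers of other cell types in the differences above was not tested. Depth moved too, as given above, and with cells of 10000 to 20000 UMIs alone 137 genes were higher and 258 lower. A gene that was higher, at 20 CPM or more on average, and at least 2 times the level of all other kept cells in every library was found once: the predicted gene Gm26911 on chromosome 6, at 57.7, 16.9, 37.6 and 49.1 CPM in Eomes-positive cells of P10 cKO, P10 WT, P14 cKO and P14 WT and 41.9, 15.1, 25.7 and 42.8 CPM in granule neurons (log2 ratio 0.37 ± 0.091, edgeR adjusted p = 0.0393). Its adjusted p (edgeR) was 0.151 without P10 cKO and 0.132 without P14 cKO. The lowest log2 ratios belonged to Sncg, Klk6, Asb4, Gm12326, Hapln2 and Ccdc3, which stood at 0 to 0.314 CPM in Eomes-positive cells and 0.229 to 6.94 CPM in granule neurons. Gm12326 was not called without P10 cKO (edgeR adjusted p = 0.0546) or without P10 WT (0.0629), nor Ccdc3 without P14 cKO (0.0602).

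Against granule cell progenitors, Eomes-positive cells had more of the genes of newborn and immature neurons, of receptors, channels and synaptic vesicles, and less of the cell cycle genes. Since that comparator was chosen by Atoh1, a gene of dividing progenitors, the direction of the cell cycle genes goes with the choice. Otx2 did not pass the test, and its levels in both classes overlapped. The comparator held 1354 cells with at least 2 UMIs of Atoh1 and 0 of Eomes, Lmx1a and the barred genes, with median UMI counts of 16892 in P10 cKO, 14405 in P10 WT, 23129 in P14 cKO and 15450 in P14 WT. Of 14104 genes, 3709 (26.3%) were higher and 3893 (27.6%) lower, a background against which the shares of any list have to be read.

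Otx2 was at 59.6, 100.3, 80.9 and 105 CPM in Eomes-positive cells of P10 cKO, P10 WT, P14 cKO and P14 WT, against 66.5, 92.3, 87.5 and 100.4 CPM in progenitors (log2 ratio 0.019 ± 0.063, edgeR adjusted p = 0.82). All 6 newborn granule neuron genes were higher (median log2 ratio 1.72). Cntn2 was at 600.4, 602, 663 and 617 CPM in Eomes-positive cells of P10 cKO, P10 WT, P14 cKO and P14 WT, against 96.7, 88.1, 84.9 and 83.7 CPM in progenitors (log2 ratio 2.84 ± 0.08, edgeR adjusted p = 9.11e-07), and the groups did not overlap. Neurod1 and Nhlh1 were higher by 1.63 and 1.92. Immature neuron genes were higher in 19 of 20 cases, Sox11 by 1.16, and glutamate release and vesicle genes in 23 of 28, with 0 lower in both lists.

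Receptors and channels followed. Of 29 metabotropic glutamate receptors and their effectors, 19 were higher. Voltage-gated channel genes were higher in 28 of 38 cases, ionotropic receptors in 12 of 24, with Grin2b higher by 3.27, inhibitory receptors in 10 of 16, and adhesion and guidance genes in 28 of 51. Of 6 mature granule neuron genes 5 were higher, Fat2 by 2.45.

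All 22 cell cycle genes were lower (median log2 ratio -1.70), and so were 4 of 5 progenitor markers, Barhl1, Gli1, Gli2 and Mfap4. Both directions go with the choice of the comparator by Atoh1 and are no separate result. Gli1, a target of Shh signalling, was at 3.06, 4.29, 0.367 and 1.33 CPM in Eomes-positive cells of P10 cKO, P10 WT, P14 cKO and P14 WT, against 30.8, 28.4, 20.7 and 23.2 CPM in progenitors (log2 ratio -3.46 ± 0.292, edgeR adjusted p = 3.44e-05). The U5 snRNP genes were lower in 6 of 9 cases (median -0.31), Eftud2 at 52.0, 59.2, 43.3 and 39.5 CPM in Eomes-positive cells of P10 cKO, P10 WT, P14 cKO and P14 WT, against 77.5, 77.6, 92.2 and 81.5 CPM in progenitors (log2 ratio -0.72 ± 0.114, edgeR adjusted p = 0.000853). Among genes also at least 2 times the level of all other kept cells, Gm26911 was higher by 2.40 and the receptor tyrosine kinase Ret by 2.37, Ret at 33.9 to 48.8 CPM in Eomes-positive cells and 6.26 to 11.1 CPM in progenitors. The lowest ratios after Gli1 belonged to the growth factor receptor Fgfr4, to Il20ra, Smpdl3b and Gpr153 and to the predicted gene Gm10848, with log2 ratios of -3.43 to -3.12.

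The share of cells that the rule found differed between genotypes by an amount that changed with depth. Members made up 5.12% of kept cells in P14 cKO (4.59 to 5.69%, exact binomial 95% interval), against 4.91% in P14 WT (4.57 to 5.26%), a ratio of 1.04. They made up 5.79% in P10 cKO (5.24 to 6.39%), against 3.49% in P10 WT (3.19 to 3.80%), a ratio of 1.66. Depth differed too, since all kept cells had a median of 11008 UMIs in P10 cKO, 8490 in P10 WT, 12347 in P14 cKO and 7838 in P14 WT. After thinning the ratio was 0.540 at P14 and 1.27 at P10, so its direction at P14 was turned round. Members with UMIs of at least 2 markers of other cell types numbered 237, 382, 257 and 390 in P10 cKO, P10 WT, P14 cKO and P14 WT, and without them the ratio was 0.440 at P14 and 2.71 at P10.

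Within the members, cycling cells were rarer in the cKO at P10. At that age genotype, program version and sex-linked genes cannot be told apart. A UMI of Mki67 or Top2a, genes of dividing cells, was found in 31.2% of P10 cKO members, against 58.8% in P10 WT, and in 18.9% of P14 cKO members, against 19.0% in P14 WT. With 2000 UMIs a cell the shares were 16.2% in P10 cKO, 37.0% in P10 WT, 10.6% in P14 cKO and 10.1% in P14 WT. Endothelial cells, which are no part of the lineage, had an Mki67 UMI in 7.98 to 27.3% of cells per library. In granule neurons, from which Mki67 and Top2a were barred, cell cycle genes were lower in the P10 cKO too. Their median log2 ratio was -1.37, and -1.16 in members.

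Otx2 was detected in 40.8% of members in P10 cKO, 57.2% in P10 WT, 56.0% in P14 cKO and 48.3% in P14 WT, against 3.54 to 8.31% of endothelial cells (median 11129 to 15703 UMIs a cell). Calb2 was detected in 6.81%, 5.22%, 10.5% and 2.78% of members of P10 cKO, P10 WT, P14 cKO and P14 WT. Endothelial cells had a Calb2 UMI in 0 to 9.73% of cells.

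At P14 few genes differed 2-fold between Eomes-positive cells of the cKO and the WT, and the genes of unipolar brush cells that were higher in the cKO came from a few cells. Eftud2 was at 43.3 CPM in P14 cKO, against 39.5 in P14 WT (log2 ratio 0.13, 95% counting interval -0.12 to 0.38). The labels do not give the deleted exons, so this level does not check the genotype. Over 13263 genes with at least 20 UMIs in both libraries together the median log2 ratio of CPM, cKO over WT with 0.5 UMI added, was -0.0046, and 491 genes (3.7%) were at least 2-fold higher and 318 (2.4%) at least 2-fold lower in the cKO.

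Otx2 was lower, at 80.9 CPM in P14 cKO, against 105 in P14 WT (log2 ratio -0.37, 95% counting interval -0.54 to -0.21), and in granule neurons of the same libraries its log2 ratio was -0.70. Eomes, which the rule used, was at 168 CPM in P14 cKO, against 225 in P14 WT. Lmx1a was at 17.2 CPM in P14 cKO, against 5.93 in P14 WT and Samd3 at 7.70 CPM in P14 cKO, against 2.42 in P14 WT.

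Rgs6 was at 78.5 CPM in P14 cKO, against 39.1 in P14 WT (log2 ratio 1.01, 95% counting interval 0.80 to 1.22). Of its UMIs 95.1% in P14 cKO and 87.9% in P14 WT lay in the 14 members with Lmx1a, which were 14 of 323 members in P14 cKO and 14 of 756 in P14 WT. Without these cells the log2 ratio was -0.23 (-1.08 to 0.56). Dgkg behaved likewise, with 0.99 over all members and 0.26 without them, and so did Adcy2, with 1.85 and 0.22. For Tafa2, a secreted brain protein gene, and Fam135b the sign turned as well: 2.47 over all members and -1.85 without the 14 cells for Tafa2, and 1.28 and -1.67 for Fam135b. Nwd2 had 2.46 over all members and 1.01 (-1.50 to 3.83) without them.

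**Figure D4:**
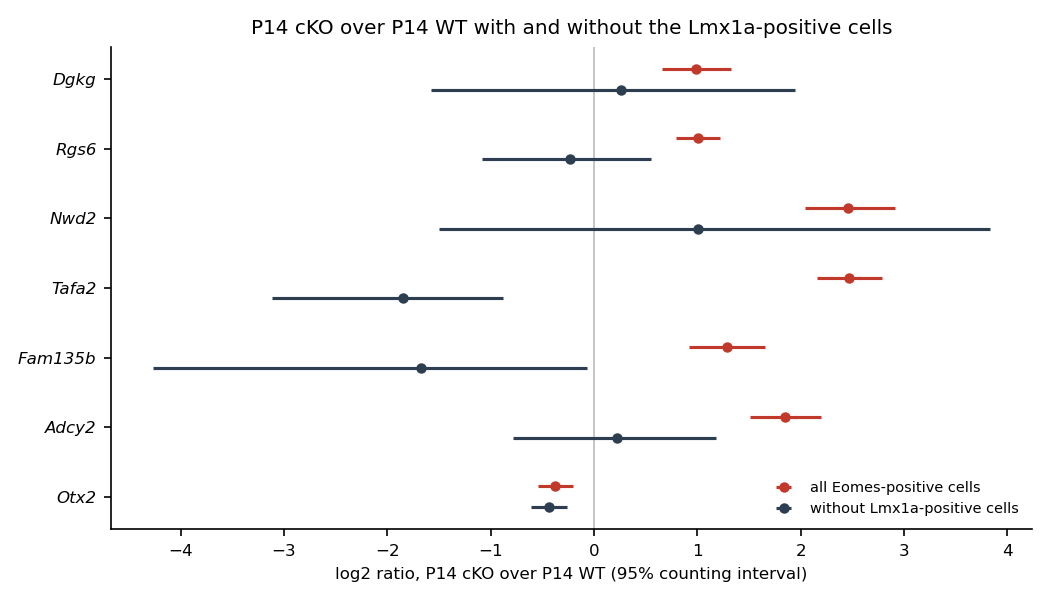
Log2 ratio of P14 cKO over P14 WT with 95% counting intervals for 7 genes, over all Eomes-positive cells and without those that carry Lmx1a. Dgkg, Rgs6, Nwd2, Tafa2, Fam135b and Adcy2 lie at 0.99 to 2.47 with all members and at -1.85 to 1.01 without the Lmx1a-positive cells, while Otx2 changes by less than 0.1.

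Some genes were higher outside these cells. Adamts18, a secreted protease gene, was at 58.1 CPM in P14 cKO, against 10.9 in P14 WT (log2 ratio 2.41, 95% counting interval 2.08 to 2.77), and without the Lmx1a-positive cells the log2 ratio was 2.48. Grin2a, an NMDA receptor subunit of maturing neurons, was at 23.5 CPM in P14 cKO, against 3.39 in P14 WT (log2 ratio 2.77, 95% counting interval 2.19 to 3.44). In granule neurons the log2 ratios were 2.73 for Adamts18 and 3.31 for Grin2a, so the difference was there too. Of 7 mature granule neuron genes tested 4 were at least 2-fold higher and 0 lower (median 1.33, and 1.80 in granule neurons). The GABA-A receptor subunit Gabra6 was at 18.5 CPM in P14 cKO, against 0.847 in P14 WT, and Fat2 at 33.6 CPM in P14 cKO, against 13.2 in P14 WT. Calb2 was at 85.7 CPM in P14 cKO, against 4.23 in P14 WT, of which 69.4% of UMIs in P14 cKO and 8.57% in P14 WT lay in Lmx1a-positive cells, and 272 of them in a single P14 cKO cell.

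Other lists are read against the 3.7% of all genes that were at least 2-fold higher and the 2.4% at least 2-fold lower at P14. Adhesion and guidance had 7 higher and 0 lower of 50, metabotropic signalling 2 and 1 of 29, inhibitory receptors 5 and 1 of 17, and voltage-gated channels 3 and 1 of 37. Cell cycle, immature neuron, U5 snRNP and interferon response genes had 0 past 2-fold either way, of 22, 20, 9 and 9 tested.

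Many of the most extreme genes at P14 were genes of other cell types. Opalin, an oligodendrocyte gene, had 86 UMIs in P14 cKO members and 0 in P14 WT, at least 43.5-fold higher against a floor of 3 UMIs in that library. Ermn, an oligodendrocyte cytoskeletal gene, was at 14.3 CPM in P14 cKO, against 0.363 in P14 WT (log2 ratio 5.09, 95% counting interval 3.70 to 7.61). The macrophage chemokine gene Pf4 was at 23.1 CPM in P14 cKO, against 0.363 in P14 WT (log2 ratio 5.78, 95% counting interval 4.41 to 8.29). On the lower side the endothelial receptor Flt1 had 0 UMIs in P14 cKO and 214 in P14 WT, at least 47.0-fold lower, and the tight junction gene Cldn5 was at 0.917 CPM in P14 cKO, against 45.2 in P14 WT. Ttr, the choroid plexus transthyretin gene, was at 5.69 CPM in P14 cKO, against 156 in P14 WT. Summed oligodendrocyte markers were at 1124 CPM in P14 cKO against 431 in P14 WT, microglia and macrophage markers at 145 against 55.0, endothelial markers at 13.6 against 115, fibroblast markers at 36.1 against 85.3 and choroid plexus markers at 37.8 against 185. The part of these markers in the other P14 differences was not tested.

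At P10 the difference between cKO and WT ran with gene length. Of 13364 genes, 2847 (21.3%) were at least 2-fold higher and 917 (6.86%) at least 2-fold lower in the cKO, with a median log2 ratio of -0.039. When genes were sorted by genomic span into 5 equal bins, with median spans of 4.59, 13.1, 25.9, 51.6 and 148 kb, the median log2 ratio in members was -0.58, -0.37, -0.087, 0.34 and 1.40 from the shortest to the longest bin. In granule neurons the medians were -0.62, -0.36, -0.069, 0.39 and 1.39. At P14, where both matrices come from the same program version, the medians in members lay between -0.036 and 0.021. Genotype, program version and sex-linked genes cannot be told apart at P10.

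**Figure D5:**
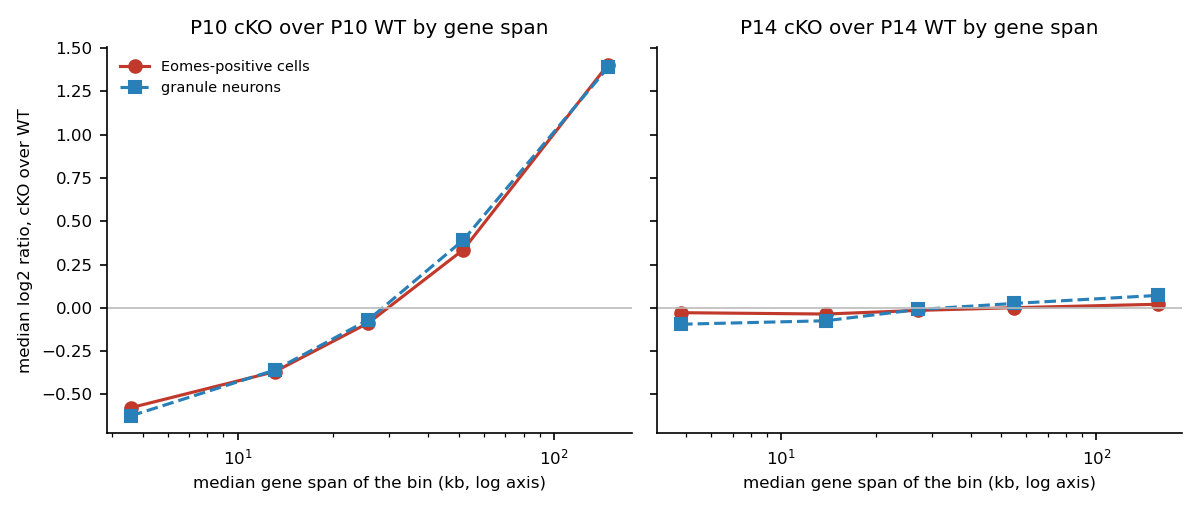
Median log2 ratio of cKO over WT by bin of genomic span, for Eomes-positive cells and granule neurons at P10 and P14. At P10 both classes climb from -0.62 to 1.40 with span, and at P14 both stay between -0.095 and 0.072.

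Channel, receptor and adhesion genes were high in the P10 cKO. Voltage-gated channels had 22 of 34 genes at least 2-fold higher, adhesion and guidance 37 of 51 and ionotropic receptors 16 of 22, against 21.3% of all genes. The median log2 ratios were 2.32, 2.15 and 2.05 in members, and 2.23, 2.07 and 1.25 in granule neurons, so the difference was there too. The part of gene span in these counts was not tested. The genes with the highest ratios, led by the predicted genes Gm26936 and Gm37240 and by 4930517O19Rik, had 0 UMIs in P10 WT members and 498 to 602 in P10 cKO, at least 187- to 226-fold higher against a floor of 3 UMIs. At P14 the 3 genes had log2 ratios of 0.22 to 0.88.

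Cell cycle genes were lower in the P10 cKO, with 14 of 22 at least 2-fold lower and 0 higher (median -1.16, and -1.37 in granule neurons). Otx2 was at 59.6 CPM in P10 cKO, against 100.3 in P10 WT (log2 ratio -0.75, 95% counting interval -0.91 to -0.60), with a log2 ratio of -0.48 in granule neurons. Eftud2 was at 52.0 CPM in P10 cKO, against 59.2 in P10 WT (log2 ratio -0.18, 95% counting interval -0.37 to -0.0032), and the 9 U5 snRNP genes had 0 past 2-fold (median -0.38). Otx2 was thus lower in the cKO members at both ages, by less than 2-fold. Among the genes higher at both ages Adamts18 was at 12.8 CPM in P10 cKO, against 2.41 in P10 WT, and Grin2a at 5.89 CPM in P10 cKO, against 0.314 in P10 WT. In granule neurons their P10 log2 ratios were 3.01 and 4.19. These 2 genes span 152 and 428 kb, and the bin of the longest genes had a median log2 ratio of 1.40 in P10 members. The part of span in the 2 ratios was not tested. Blood and vessel genes were lower at P10, with erythroid markers at 16.5 CPM in P10 cKO against 2023 in P10 WT, microglia and macrophage markers at 36.4 against 194, endothelial markers at 15.9 against 103 and fibroblast markers at 61.2 against 245. Their part in the P10 differences was not tested.

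Over the 4 libraries, with all members, unthinned counts and a filter on low counts, edgeR called no gene for genotype, for age or for the difference of the genotype effect from that in granule neurons. For genotype with age as covariate, which leaves 1 residual degree of freedom, edgeR's quasi-likelihood test called 0 of 13717 genes (smallest adjusted p = 0.846), with 293 at an unadjusted p under 0.05, and DESeq2 called 2 higher and 19 lower. With no filter on low counts edgeR called 7 higher and 25 lower. The smallest p-values belonged to genes of vessels, fibroblasts and choroid plexus, namely Cldn5, Dcn, Col1a2, Ttr, Igfbp7, Ramp2 and Col1a1, all lower in the cKO, and to Adamts18, which was higher by 2.42. For age the test called 0 genes (501 unadjusted, smallest adjusted p = 0.936) and DESeq2 59 higher and 3 lower at P14, and edgeR with no filter 51 higher and 5 lower. The smallest p belonged to the predicted gene Gm10320, higher at P14 than at P10 by 6.89, followed by Rgs6, higher by 4.40, and Adcy2, higher by 4.09. Whether the genotype effect in members differed from that in granule neurons was tested as an interaction, which called 0 of 15063 genes (355 unadjusted) and 1 by DESeq2.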

How the data were processed

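The authors deposited 1 filtered matrix of UMI counts per library, with reads aligned to mm10 and counted by Cell Ranger; per the submitters' processing notes the tools were Cell Ranger 3.0.2 and Seurat 4.1.3, while the file headers give the versions given above. Whether intronic reads were counted is not given in the sources used here. Cells were filtered and assigned as stated, and deposited counts were summed per class and library. Genes passing filterByExpr (minimum count 10) were tested with edgeR 4.0.16 (R 4.3.3), without the genes of the rules. SE is the log2 ratio divided by the square root of F. Ratios within an age used at least 20 UMIs, 0.5 UMI added and exact conditional intervals (SciPy 1.17.1). DESeq2 1.42.0 was an alternative. Doublets were scored by Scrublet (Scanpy 1.11.5) at 0.22, a threshold chosen after the scores were seen, and were kept: 57 members of 1412 calls. Scripts were tested on simulated data. GENCODE vM21 (GRCm38) matched 32235 of 32285 gene IDs and gave the spans. Named genes were the most extreme by size or p in each comparison, beside the markers and list genes; some genes are not reported here and were left out of the lists. The members and lists were chosen with earlier results of these data known.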

Additional observations from a re-analysis of the deposited data

Results flagged for a closer look

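Genes of macrophages differed between cKO and WT members in opposite directions at the 2 ages, and this difference between ages was not tested. Ccl24, a chemokine gene, had 69 UMIs in P14 cKO and 0 in P14 WT (log2 ratio 7.72 with 0.5 UMI added, at least 34.9-fold higher against a floor of 3 UMIs), and 8 UMIs in P10 cKO and 37 in P10 WT (log2 ratio -1.97). Mrc1, the mannose receptor gene, had 63 and 1 UMIs in P14 cKO and P14 WT (log2 ratio 6.004) and 7 and 105 in P10 cKO and P10 WT (-3.65). Pf4 had 126 and 3 UMIs in P14 cKO and P14 WT (log2 ratio 5.78) and 18 and 212 in P10 cKO and P10 WT (-3.35). In granule neurons of the same libraries the log2 ratios at P14 and P10 were 2.71 and -4.86 for Ccl24, 2.10 and -4.41 for Mrc1, and 2.81 and -5.23 for Pf4, with the same signs.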

How the results depend on the processing

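The alternatives by Lmx1a, by Atoh1, Mki67 or Top2a, by all Neurod1 cells and by a window of 10000 to 20000 UMIs were chosen after seeing the data. The share ratio of cKO over WT at P14 was 1.30 with at least 3 Eomes UMIs, 2.44 with Eomes and Lmx1a, 0.440 without members with markers of other types, 1.26 in the window and 0.540 thinned. At P10 it was 1.44 with Eomes and Lmx1a, 2.71 without other markers, 2.77 without Atoh1, Mki67 or Top2a, 2.75 also without Lmx1a, and 1.27 thinned. With Eomes and Lmx1a required, the mean share of members over libraries was 51.8% for Mki67 or Top2a, 89.3% for Otx2 and 25.0% for Calb2. Thinned, it was 14.8% for Otx2 and 1.51% for Calb2. For Otx2 it was 59.2% with at least 3 Eomes UMIs, 41.6% without Atoh1, Mki67 or Top2a and 40.9% also without Lmx1a, where by construction it was 0% for Mki67 or Top2a.

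Against granule neurons, genes called higher numbered 654 without other markers, 1891 against all Neurod1 cells, 349 without Atoh1, Mki67 or Top2a, 459 also without Lmx1a, 137 in the window and 472 thinned. Lower genes numbered 2810 against all Neurod1 cells, 258 in the window and 515 thinned. Leaving out 1 library gave 431 to 1008 higher and 265 to 1473 lower. The library is the replicate block of both class comparisons; without the block 162 genes were higher and 14 lower than in granule neurons, and 1237 higher and 1352 lower than in progenitors. Thinned, 2147 were higher and 2350 lower than in progenitors. No paired analysis was possible for genotype because each group has 1 library and the labels give no replicate numbers. The fits with Eomes and Lmx1a required were not run, since 2 and 3 members remain at P10.

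For genotype DESeq2 called 2 higher and 19 lower and the fit with no filter on low counts 7 higher and 25 lower. For age they called 59 higher and 3 lower and 51 higher and 5 lower, the fit without other markers 25 higher and 2 lower, and the thinned fit 0 higher and 1 lower. For the interaction they called 0 higher and 1 lower and 13 higher and 54 lower. At P14 the genes past 2-fold numbered 188 higher and 532 lower in the window, 222 and 149 thinned, 246 and 155 with at least 50 UMIs, and 486 lower with Eomes and Lmx1a. At P10 they numbered 339 higher and 348 lower with Eomes and Lmx1a, 1745 higher thinned and 535 lower with at least 50 UMIs.

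Some log2 ratios changed sign. In the P14 comparison Tafa2 stood at -1.85 without Lmx1a members and -4.91 also without Atoh1, Mki67 or Top2a, and in the window Nwd2 stood at -0.60 and Samd3 at -1.75. Against granule neurons Dgkg stood at -0.60 without Lmx1a members, and Dgkg at -0.30 also without the cycling ones. Cenpf stood at -0.36 and Hmgb2 at -0.59 against all Neurod1 cells, -0.50 and -0.15 without Atoh1, Mki67 or Top2a members, and -0.49 and -0.13 also without Lmx1a. The cause of the other changes was not tested. Of the summary values 179 stayed close and 66 moved. Of the values of single genes 1206 stayed the same, 76 lost the call, 175 moved and 12 changed sign. For class comparisons the same means the same sign and call, and for ratios within an age it means close to the main log2 ratio. Within an age, a change of sign was counted only for genes past 2-fold with all members. Other sign changes may lie among the 1206 or the 175. The number of cells limits the P10 values of Lmx1a-positive cells, which rest on 5 cells.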

Other observations

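Outside the members, 124 kept cells carried Lmx1a, of which 75 also held choroid plexus genes.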
